A study of Schizosaccharomyces pombe with 4 samples.

Results

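The 3 centromeres of fission yeast, Schizosaccharomyces pombe, and the 50 kb on either side of each were examined in a tiling-array study of Rad52, a protein of homologous recombination. All array probes whose design coordinates fell in chrI:3703000-3834000, chrII:1552000-1694000 or chrIII:1020000-1187000 were taken, which gave 1060 of 42641 nuclear probes. Of these, 42 lay in the cores (chrI:3753000-3784000, chrII:1602000-1644000 and chrIII:1070000-1137000, here cen1, cen2 and cen3) and 1018 in the flanks. After outlier spots were left out, 42 core and 1014 flank probes remained, and 300 of 12047 bins of 1 kb held at least 2 of them. The cores cover 140 kb at 0.3 probes per kb and the flanks 300 kb at 3.39 probes per kb. The largest stretches without a probe were 41.9 and 27.4 kb at cen3, 17.2 and 15.6 kb at cen2, and 11.4 and 6.65 kb at cen1, so long stretches of the cores were not measured.

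Both strains carried cdc25-22, a temperature-sensitive allele of the phosphatase that starts mitosis, and the deletion of rif1, whose product delays origin firing. The second strain also lacked rad3, the fission yeast ATR checkpoint kinase. All cells were arrested for 4 h at 36.5 °C, returned to 25 °C and given 6 mM hydroxyurea, which starves replication forks of nucleotides; the time of collection is not given in the labels. Each strain had 2 arrays, on which chromatin immunoprecipitated with Rad52 (ChIP, Cy3) was hybridised against input DNA (Cy5). Nothing in the labels says that the replicates were separate cultures, so p-values given here reflect array-to-array variation only, possibly technical. No strain with rif1 and no ChIP without Rad52 was analysed here, so enrichment that does not depend on Rad52 or on the loss of Rif1 cannot be told apart.

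A fission yeast centromere has a central domain, where nucleosomes carry the histone H3 variant Cnp1 and the kinetochore forms. Repeats packed in heterochromatin surround that domain, and clusters of tRNA genes stand at the borders between these kinds of chromatin. Homologous recombination proteins are known to act on the repeats, where exchange between copies can rearrange chromosome arms.

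Sequences from the cores are printed to show what the arrays could and could not read, from RefSeq's ASM294v3 genome, 5′ to 3′ on the strand of the gene. Capitals mark the bases under an array probe by its design coordinates. SPNCRNA.369 (chrII:1620799-1620937, plus strand, 139 bases, 74.1% A+T) and SPNCRNA.7206 (chrIII:1097901-1098150, plus strand, 250 bases, 68.8% A+T) are non-coding RNA genes of the central domains of cen2 and cen3, each present in 1 copy. The glutamate tRNA gene SPCTRNAGLU.10 (chrIII:1097499-1097570, minus strand) lies between probes of the cen3 core. Its sequence occurs in 6 copies in the genome and no probe lies on it. The valine tRNA gene SPBTRNAVAL.06 (chrII:1619174-1619256, minus strand) marks the left end of the central domain of cen2. Its partner at the right end, SPBTRNAVAL.07 (chrII:1629159-1629241, plus strand), has the same 83 bases, 1 of 8 copies, and neither has a probe.
SPNCRNA.369: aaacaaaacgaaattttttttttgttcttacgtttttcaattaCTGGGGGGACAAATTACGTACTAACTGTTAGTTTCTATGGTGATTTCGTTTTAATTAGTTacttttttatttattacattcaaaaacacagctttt
SPNCRNA.7206: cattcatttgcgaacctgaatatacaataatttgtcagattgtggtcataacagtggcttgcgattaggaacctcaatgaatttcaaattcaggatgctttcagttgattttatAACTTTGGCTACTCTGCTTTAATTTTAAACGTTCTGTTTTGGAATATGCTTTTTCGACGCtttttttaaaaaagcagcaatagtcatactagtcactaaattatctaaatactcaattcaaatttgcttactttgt
SPCTRNAGLU.10: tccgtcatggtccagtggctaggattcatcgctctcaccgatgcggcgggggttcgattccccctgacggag
SPBTRNAVAL.06: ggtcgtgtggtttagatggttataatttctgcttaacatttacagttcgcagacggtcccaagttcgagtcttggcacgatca

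Array coordinates did not match the reference genome from the cen1 core to the end of chromosome I, where the best match lay 6130 bp away. Therefore the cen1 core and its right flank carry no gene names or base content here. On the other arms the input signal followed A+T best without a shift, except right of the cen3 core. There the best shift was -20 bp (r = -0.295, against -0.291 without a shift). The cen2 and cen3 cores were not checked on their own. Probes in rif1 read at most 3.48% of the array median in either channel of all 4 arrays. Probes in rad3 read 63.1% to 79.4% of the median on the rif1Δ arrays and at most 6.09% on those of rif1Δ rad3Δ. Input DNA of the double deletion strain also lacked rad3, at 1.82% and 0.97% of its median, whereas its label gives cdc25-22 without either deletion. The second rif1Δ rad3Δ array was read with a different protocol of the scanner software, and its derivative spread, a measure of noise between neighbouring probes, was 0.452 against 0.311 to 0.321 on the others.

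Rad52 ChIP over input was high in all 3 cores and near the array median across their flanks. Values are the log2 of ChIP over input, with 0 at the median of all nuclear probes. The cen3 core, read by 7 probes, had means of 1.49 and 1.60 on the rif1Δ arrays and 2.13 and 2.18 on the rif1Δ rad3Δ arrays. The cen2 core, read by 29 probes, had 1.05 and 1.45 in rif1Δ and 1.69 and 1.62 in rif1Δ rad3Δ. The cen1 core, read by 6 probes, had 0.95 and 1.18 in rif1Δ and 1.39 and 1.27 in rif1Δ rad3Δ. Each core stood well above 0 on every array. In each core both rif1Δ rad3Δ values exceeded both rif1Δ values, as they also did in 37.5% of 2379 windows of 5 kb outside the regions. As folds over the array median, the strain means were 2.92 and 4.45 at cen3, 2.38 and 3.15 at cen2, and 2.10 and 2.52 at cen1, rif1Δ first.

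The level of each core differed from 0 in limma's test. The adjusted p in rif1Δ was 7.80e-05 at cen3, 0.00065 at cen2 and 0.00104 at cen1. In rif1Δ rad3Δ it was 2.25e-05, 8.53e-05 and 0.000149 in the same order. Only 50 of the 12047 bins had a higher mean than the cen3 core in rif1Δ, and 12 in rif1Δ rad3Δ. For cen2 those numbers were 80 and 42, and for cen1 they were 110 and 114.

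The flanks as wholes gave no such level. The mean of both flanks lay between -0.041 and 0.078 at every centromere on every array. Averaged over all flank probes it was 0.061, -0.029, 0.024 and 0.0067 on the arrays in the order rif1Δ replicates 1 and 2, then rif1Δ rad3Δ replicates 1 and 2. Core minus flanks, a value that does not depend on how an array is centred, was 1.10 and 1.44 in rif1Δ and 1.71 and 1.68 in rif1Δ rad3Δ. The strain means were 1.27 ± 0.24 and 1.70 ± 0.021 (SD, n = 2 each). An exact two-sided permutation test of the arrays gave p = 0.333, the smallest that 2 arrays against 2 allow.

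**Figure D1:**
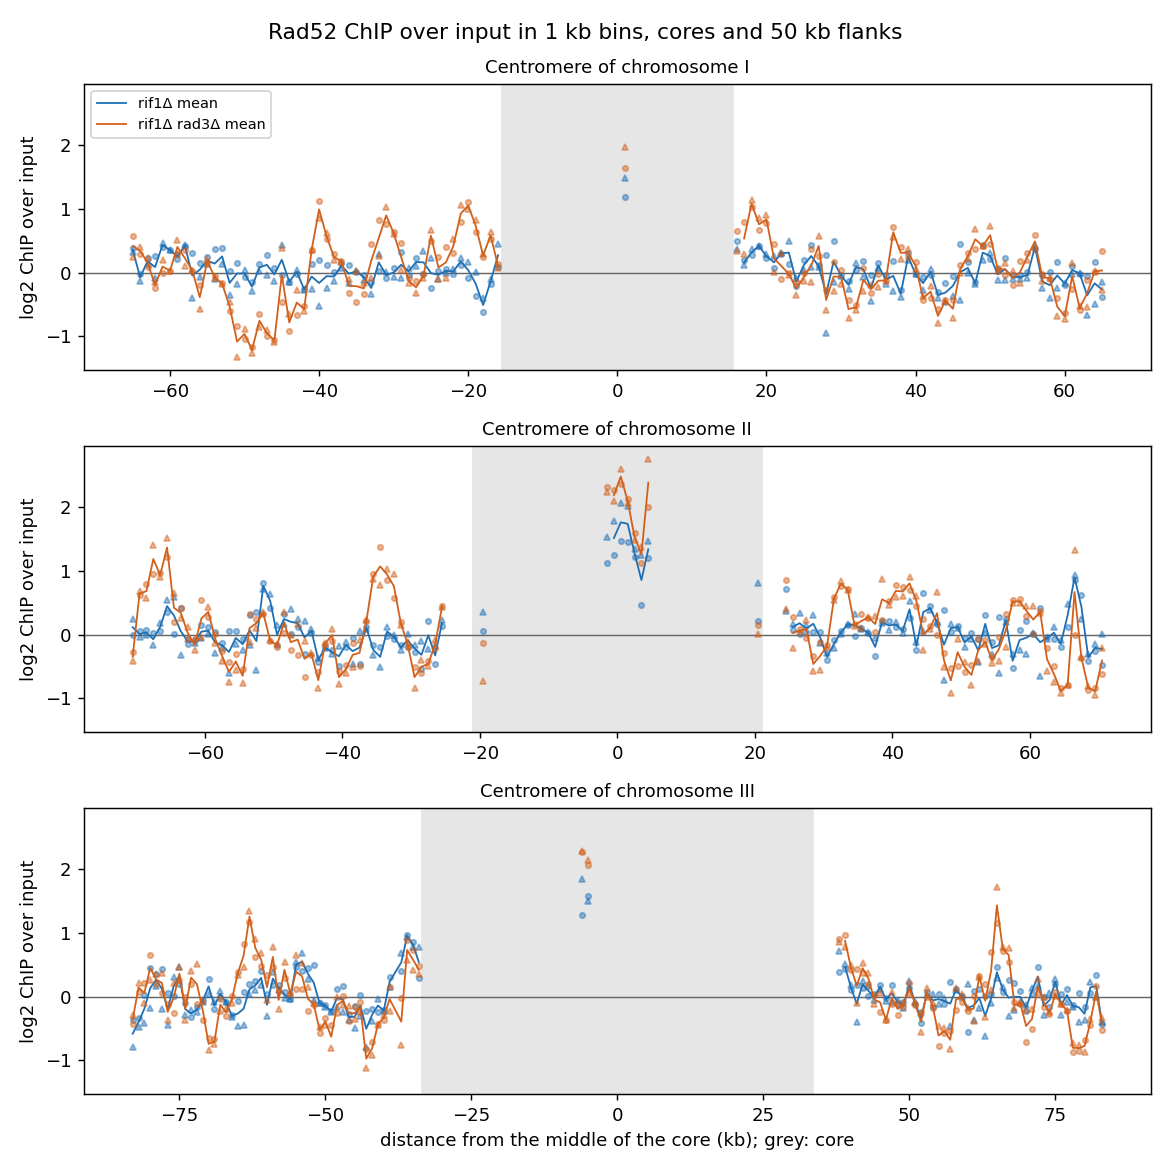
Rad52 ChIP over input (log2, vertical) in bins of 1 kb against distance from the middle of each core in kb, with points for the 4 arrays (circles replicate 1, triangles replicate 2), lines for strain means (blue rif1Δ, orange rif1Δ rad3Δ) and grey for the core. The cen2 core bins stand highest near the middle of the grey band, long stretches of each core hold no bin, and the orange line swings further from 0 in the flanks than the blue line.

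Between strains, the core of cen3 was higher without Rad3, and those of cen1 and cen2 did not pass the test. The rif1Δ rad3Δ minus rif1Δ difference at cen3 was 0.61 ± 0.16 (SE; limma adjusted p = 0.0314). At cen2 it was 0.40 ± 0.18 (limma adjusted p = 0.145) and at cen1 0.26 ± 0.17 (limma adjusted p = 0.285). The cores were not sampled alike. The 7 cen3 probes all lay within chrIII:1097235-1098896, in the central domain. The cen2 mean joined 24 central probes, with a difference of 0.61, and 5 outer probes, with one of -0.59. This split was made after the values were seen, and its part in the cen2 result was not tested. The cen3 call was lost when any 1 of the 4 arrays was left out, with limma adjusted p-values of 0.0715 to 0.135 and differences of 0.55 to 0.66. The same gave 0.20 to 0.60 at cen2, lowest without the first and highest without the second rif1Δ array, and 0.15 to 0.38 at cen1, in the same order. With medians over probes the cen1 difference was 0.52 (limma adjusted p = 0.0978). When all arrays were scaled to the same spread over probes, the difference turned negative in every core, at -0.26 for cen3, -0.28 for cen2 and -0.30 for cen1. The plot of core differences by processing shows this beside the other settings.

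Both replicate 1 arrays shared a slide, and within it the difference was 0.64 at cen3, 0.64 at cen2 and 0.44 at cen1. Between the replicate 2 arrays, which lay on different slides, it was 0.58, 0.17 and 0.084. The sign was the same in both comparisons, while the size at cen1 and cen2 was not. The replicate numbers are not taken to pair the arrays. The flanks gave differences of 0.0021 at cen1, 0.020 at cen2 and -0.022 at cen3, with limma adjusted p-values of 0.994, 0.937 and 0.934.

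**Figure D2:**
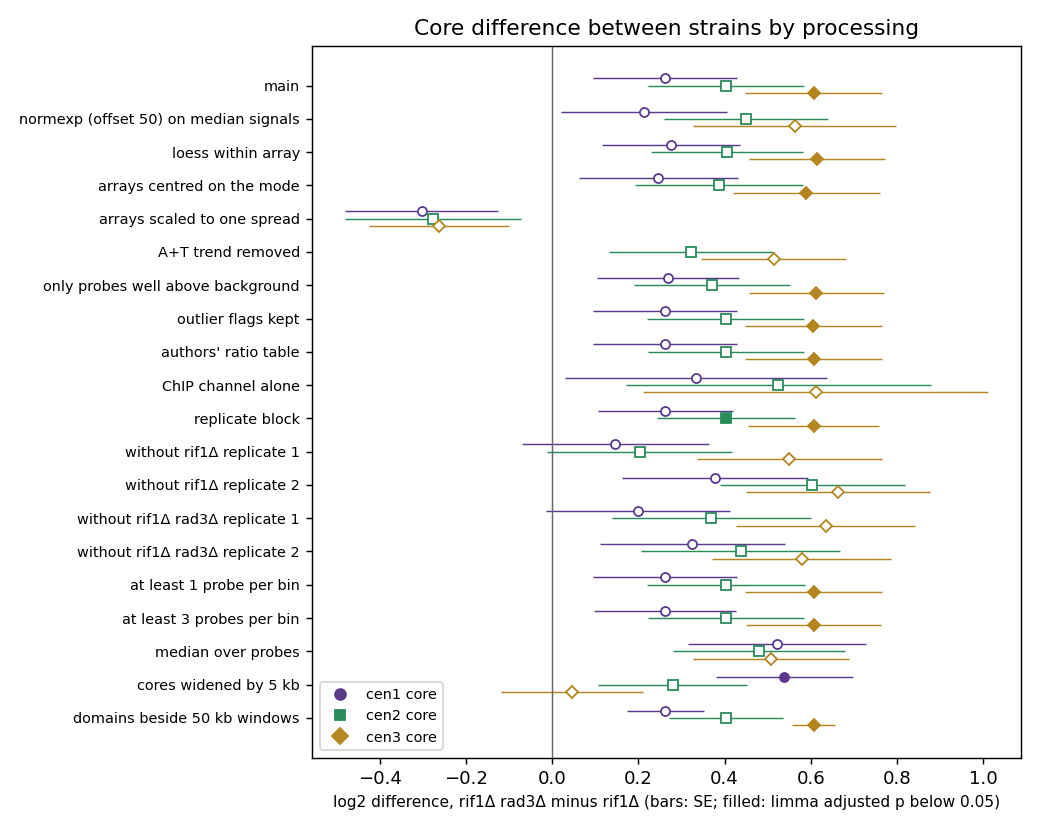
Difference in the core mean between strains (log2, rif1Δ rad3Δ minus rif1Δ, horizontal) for each centromere under every processing setting, with bars for the SE and filled symbols where limma's adjusted p was below 0.05. The cen3 difference is filled in the main setting and open in 10 alternatives, and all 3 cores lie below 0 when arrays are scaled to one spread.

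Within the cen2 core, probes of the central domain averaged higher than the outer ones. The split by annotation, between SPBTRNAVAL.06 and SPBTRNAVAL.07, was made after the values were seen, so no test is given. The 24 central probes averaged 1.20 and 1.61 in rif1Δ and 2.01 and 2.02 in rif1Δ rad3Δ. The 5 outer probes averaged 0.34 and 0.66 in rif1Δ and 0.12 and -0.29 in rif1Δ rad3Δ. The strain difference was thus 0.61 over the central and -0.59 over the outer probes, in opposite directions. Among the outer probes, the one at chrII:1602139-1602198 covers only 11 bases of the arginine tRNA gene SPBTRNAARG.06. It was high in rif1Δ, at 1.19 and 0.98, and read 0.57 and -0.023 in rif1Δ rad3Δ. All 7 cen3 probes lie between the leucine tRNA genes SPCTRNALEU.12 and SPCTRNALEU.13, inside its central domain.

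Of the 42 core probes, 36 lay above 0 on all 4 arrays. In 25 both rif1Δ rad3Δ values exceeded both rif1Δ values, and in 4, all outer probes of cen2, both were lower. Among all 1 kb bins, 64.5% had strains that did not overlap in either direction, so such counts are frequent on these arrays. That share is for bins and for both directions together. None over single probes is given here, nor one for values above 0 on all 4 arrays. The counts without overlap therefore do not set the core probes apart from other probes. By limma's test on single probes, 34 core probes were above 0 in rif1Δ and 36 in rif1Δ rad3Δ, beside 804 and 6733 of all 42548. None of the 42 core probes was higher in rif1Δ rad3Δ than in rif1Δ by that test, beside 534 of all probes. The 31 central probes of cen2 and cen3 all had a higher mean in rif1Δ rad3Δ, and 23 of them did not overlap. The probe inside SPNCRNA.369, whose sequence is given above, read 1.24 and 1.39 in rif1Δ and 2.46 and 1.78 in rif1Δ rad3Δ. The probe inside SPNCRNA.7206 read 1.18 and 1.72 in rif1Δ and 1.58 and 1.85 in rif1Δ rad3Δ, so at this gene the strains overlapped. At cen1 the leftmost of the 6 probes (chrI:3759225-3759284) stood apart from the others, at -0.14 and -0.10 in rif1Δ and 0.20 and -1.23 in rif1Δ rad3Δ.

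**Figure D3:**
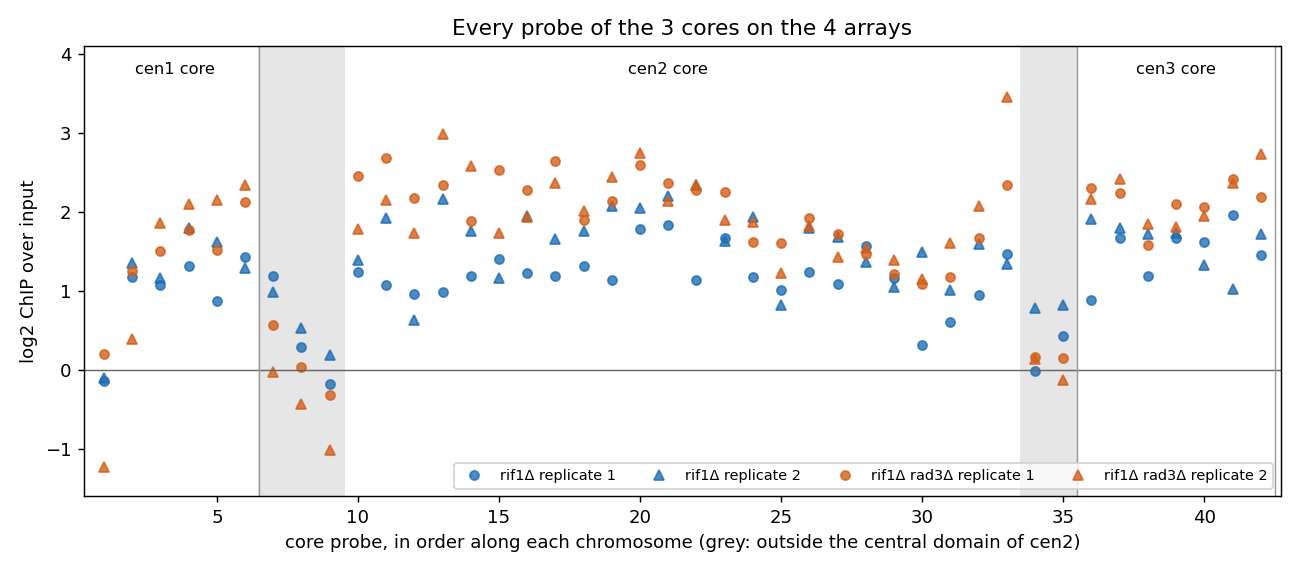
The log2 ChIP over input (vertical) of each of the 42 core probes in their order along the chromosomes (horizontal), for the 4 arrays, with the outer probes of cen2 shaded grey. The unshaded cen2 probes and the cen3 probes lie above 0 on all arrays, and the shaded probes average lower, with rif1Δ rad3Δ mostly below rif1Δ, although the first shaded probe reads 1.19 and 0.98 in rif1Δ.

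Of the 12 core bins, 10 were above 0 in rif1Δ, where 4.25% of all bins were, and 10 in rif1Δ rad3Δ, where 24.5% of all bins were. The bin at chrII:1603000-1603999, at the left edge of cen2, was the 1 core bin below 0 in rif1Δ rad3Δ, against 24.5% of all bins. It read 0.055 and 0.36 in rif1Δ and -0.14 and -0.72 in rif1Δ rad3Δ. Between strains, 6 core bins were higher in rif1Δ rad3Δ, against 10.5% of all bins, and the other 6 did not pass the test. The 6 higher bins were 4 in the central domain of cen2 and both bins of cen3.

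The bin at chrII:1621000-1621999 had 1.12 and 1.53 in rif1Δ and 2.32 and 2.23 in rif1Δ rad3Δ, a difference of 0.95 ± 0.18 (SE; limma adjusted p = 0.0124). The bin at chrII:1627000-1627999 had 1.21 and 1.47 against 2.01 and 2.76, a difference of 1.04 ± 0.24 (SE; limma adjusted p = 0.0226), although 1 of its 2 probes was not well above background on at least 1 array. At these bins both rif1Δ rad3Δ arrays were clear of both rif1Δ arrays, as at all 1263 of the 12047 bins called higher. The bins at 1622000 and 1623000 differed by 0.67 and 0.72 (limma adjusted p = 0.0489 and 0.0476), close to the threshold. Between them and 1627000, the bins at 1624000, 1625000 and 1626000 differed by 0.36, 0.26 and 0.40 without passing the test. At cen3, the bin with SPCTRNAGLU.10 (chrIII:1097000-1097999) had 1.28 and 1.85 in rif1Δ and 2.27 and 2.29 in rif1Δ rad3Δ, a difference of 0.71 (limma adjusted p = 0.0412). The next bin, with SPNCRNA.7206, differed by 0.56 (limma adjusted p = 0.0383). With arrays scaled to one spread none of these 6 calls remained, and 4 of the 6 differences turned negative.

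The channels were also read on their own, since a ratio rises both with more ChIP signal and with less input. The mean core input lay below the array median on every array, and far lower on the replicate 2 array of each strain. At cen3 the mean input was -0.64 and -2.02 in rif1Δ and -0.83 and -1.83 in rif1Δ rad3Δ, as log2 over the array median. At cen2 it was -0.33 and -1.48 in rif1Δ and -0.28 and -1.31 in rif1Δ rad3Δ. At cen1 it was -0.32 and -1.26 in rif1Δ and -0.41 and -1.04 in rif1Δ rad3Δ. Replicates thus differed more than strains did. The input of the 12 core bins was lower on replicate 2 than on replicate 1 in 12 of 12 bins of rif1Δ, with a median change of -1.33, and in 11 of 12 bins of rif1Δ rad3Δ, with a median of -0.96. Only 10 and 26 of the 12047 bins fell by as much as these medians or more. The cut is the core bins' own median, so core bins make up part of both counts.

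The ChIP channel alone gave a smaller excess in the cores. At cen3 it was 0.84 and -0.45 in rif1Δ and 1.28 and 0.33 in rif1Δ rad3Δ. At cen2 it was 0.71 and -0.071 in rif1Δ and 1.40 and 0.29 in rif1Δ rad3Δ. At cen1 it was 0.63 and -0.12 in rif1Δ and 0.97 and 0.21 in rif1Δ rad3Δ. On the second rif1Δ array the ChIP signal of every core was below the array median, so the high ratio there came with a low input. The rif1Δ rad3Δ value exceeded that of the rif1Δ array with the same replicate number at all 3 cores. Those numbers are not taken to pair the arrays, and the strains overlapped at each core. The second rif1Δ rad3Δ array read below the first rif1Δ array there. The strain differences of the ChIP channel were 0.61, 0.52 and 0.33 for cen3, cen2 and cen1. Their limma adjusted p-values were 0.325, 0.34 and 0.486. The part that the input plays in the core levels was not tested. A level in 1 channel is not by itself a measure of Rad52 enrichment, since signals of different probes are not on a common scale. By limma's test, 3242 of 12047 bins were above and 3811 below 0 in rif1Δ in the ChIP channel alone. For the ratio those counts were 512 and 111.

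Averaged over the central domain of cen2 the input was -0.50 and -1.89 in rif1Δ and -0.48 and -1.65 in rif1Δ rad3Δ, while the outer probes averaged 0.48 and 0.48 in rif1Δ and 0.67 and 0.32 in rif1Δ rad3Δ. Single probes departed from these averages, and signals of different probes are not on a common scale. The outer probe at the edge of SPBTRNAARG.06 had input of -1.77 and -0.38 in rif1Δ and -1.25 and -1.07 in rif1Δ rad3Δ. The central probe in SPNCRNA.369 had 1.31 and 0.32 in rif1Δ and 1.65 and 1.52 in rif1Δ rad3Δ. Central probes of cen2 and cen3 held 61.7% to 71.7% A+T. With a trend on A+T removed from each array, the cen3 difference was 0.51 and had a limma adjusted p of 0.0515.

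**Figure D4:**
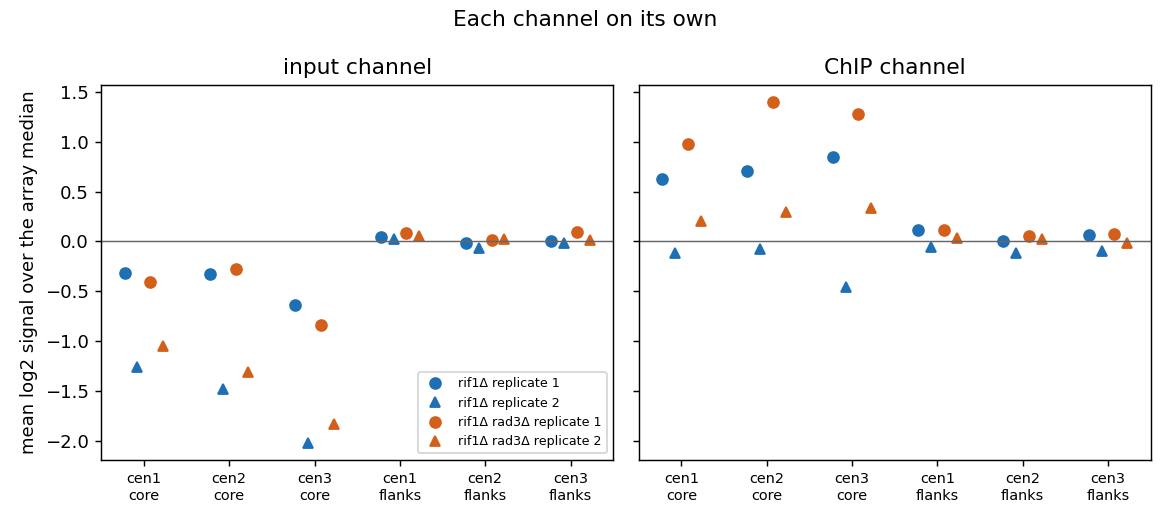
Mean log2 signal over the array median (vertical) of the input channel (left) and the ChIP channel (right) for cores and flanks, with circles for replicate 1, triangles for replicate 2, blue for rif1Δ and orange for rif1Δ rad3Δ. The triangles of the core input lie between -1.04 and -2.02, below the circles, while all flank points lie near 0.

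Across the flanks, single bins passed the tests at shares near those of all bins for the level in rif1Δ rad3Δ and for the strain difference, and at lower shares for the level in rif1Δ. Values were spread more widely on the rif1Δ rad3Δ arrays, as in the rest of the genome. The SD over the 288 flank bins was 0.254 and 0.305 on the rif1Δ arrays and 0.484 and 0.53 on the rif1Δ rad3Δ arrays. Bins outside the regions had 0.317 and 0.34 in rif1Δ and 0.507 and 0.527 in rif1Δ rad3Δ. In rif1Δ, 5 flank bins (1.74%) were above 0 and 2 (0.694%) below by limma's test, beside 4.25% and 0.921% of all bins. The 5 were both bins over the ATP sulfurylase gene sua1 left of cen2, 2 bins with arginine and aspartate tRNA genes left of cen3 and 1 bin over non-coding genes right of cen3, and the 2 lay over per1 and ucp12. The second sua1 bin (chrII:1572000-1572999) falls outside the rule for named bins and is given because its count is small. In rif1Δ rad3Δ, 74 (25.7%) were above and 66 (22.9%) below, near the 24.5% found in each direction over all bins. Between strains, 38 flank bins (13.2%) were higher in rif1Δ rad3Δ and 24 (8.33%) lower, beside 10.5% and 8.52% over all bins. By centromere, 14, 16 and 8 flank bins were higher and 9, 9 and 6 lower at cen1, cen2 and cen3.

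The largest rise in the cen2 flanks stood over ngg1, which encodes a subunit of the SAGA transcription coactivator. Its bin at chrII:1588000-1588999 read -0.19 and -0.51 in rif1Δ and 1.37 and 0.77 in rif1Δ rad3Δ, a difference of 1.42 ± 0.22 (SE; limma adjusted p = 0.00764). The bin beside it, also within ngg1, rose by 1.15 (limma adjusted p = 0.00545). Near the outer end of the left flank, the bin at chrII:1555000-1555999 over the non-coding gene SPNCRNA.1443 read 0.023 and -0.17 in rif1Δ and 0.96 and 1.41 in rif1Δ rad3Δ, a rise of 1.26 (limma adjusted p = 0.00724). These bins went from about the array median to about 2 times it. The bin over the aldolase gene fba1, at chrII:1688000-1688999, read 0.13 and 0.48 in rif1Δ and -0.79 on both rif1Δ rad3Δ arrays, a difference of -1.09 (limma adjusted p = 0.00828). The next fba1 bin read 0.86 and 0.94 in rif1Δ but 0.0011 and 1.34 in rif1Δ rad3Δ, where the replicates disagreed. Bins over the splicing genes cdc28, which encodes an RNA helicase, and prp38 fell by 0.82 and 0.80 (limma adjusted p = 0.0194 and 0.0205). Without 1 prp38 probe that was not well above background on at least 1 array, the change of that bin was -0.57 (limma adjusted p = 0.0352). The gene sua1, which acts in sulfate assimilation, had one of the highest flank values in rif1Δ, at 0.82 and 0.71 in its bin at chrII:1571000-1571999, which read 0.32 and 0.35 in rif1Δ rad3Δ. Its second bin read 0.42 and 0.64 in rif1Δ and -0.11 and -0.086 in rif1Δ rad3Δ, a difference of -0.63 (limma adjusted p = 0.0313).

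In the left flank of cen1, rises and falls lay side by side. The bin at chrI:3728000-3728999, shared by vps29, a retromer subunit, and moa1, a meiotic protein of the centromere core, read 0.20 and -0.53 in rif1Δ and 1.12 and 0.86 in rif1Δ rad3Δ, a rise of 1.15 (limma adjusted p = 0.0159). The bin at chrI:3748000-3748999, over non-coding genes, rose by 1.01 (limma adjusted p = 0.00889). That at chrI:3737000-3737999 over prm1, which acts in cell fusion during mating, rose by 0.93 (limma adjusted p = 0.0107). Some kilobases further from the core, the bin of rpl42 (chrI:3722000-3722999), a gene for a ribosomal protein of the large subunit, read 0.071 and -0.13 in rif1Δ and -1.05 and -1.08 in rif1Δ rad3Δ. Its change of -1.04 ± 0.16 (SE; limma adjusted p = 0.00764) was about as large as that of the bin of SPAC15E1.02C, at -1.07. Of the bins over bud6, which encodes a cell polarity protein, the 2 that the rule for named bins picked changed by -1.07 and -0.99. The other 3 changed by -0.95, -0.84 and, in the bin shared with sgo2, -0.37 (limma adjusted p = 0.00928, 0.0133 and 0.179), and all 5 were below 0 on both rif1Δ rad3Δ arrays. The bins of rpl42 and SPAC15E1.02C and the first bud6 bin each held 1 probe not well above background on at least 1 array, and without such probes they changed by -1.17, -1.06 and -1.10. The step from 30 to 35 kb left of the core averaged 0.066 and -0.074 in rif1Δ and -0.98 and -0.99 in rif1Δ rad3Δ. Closer to the core, the bin of per1 at chrI:3750000-3750999 was among the lowest in rif1Δ, at -0.61 and -0.40, and read 0.24 and 0.29 in rif1Δ rad3Δ (limma adjusted p = 0.0168). In the unnamed right flank, the bin at chrI:3786000-3786999 was the highest in rif1Δ rad3Δ, at 1.02 and 1.14, and read 0.27 and 0.36 in rif1Δ (limma adjusted p = 0.0162).

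In the flanks of cen3, the bin of rpa12 (chrIII:1040000-1040999), a subunit gene of RNA polymerase I, read 0.19 and 0.039 in rif1Δ and 1.17 and 1.34 in rif1Δ rad3Δ. Its rise of 1.14 ± 0.16 (SE; limma adjusted p = 0.00584) was followed by that of the bin shared by hem12, of heme synthesis, and nte1, a lysophospholipase gene, at 1.05 (limma adjusted p = 0.0138). The largest called fall in these flanks, at -0.93 (limma adjusted p = 0.0315), was in the bin with the tRNA gene SPCTRNASER.09 (chrIII:1066000-1066999). The bin of rps1802, a gene for a ribosomal protein of the small subunit, changed by -0.90 (limma adjusted p = 0.012), and that of rhp26, which acts in transcription-coupled repair, by -0.66 (limma adjusted p = 0.0251). Without 1 rps1802 probe that was not well above background on at least 1 array, the change of that bin was -0.69 (limma adjusted p = 0.0229). The bin over the checkpoint kinase gene chk1 was among the lowest in both strains, at -0.22 and -0.79 in rif1Δ and -0.82 and -1.12 in rif1Δ rad3Δ. Its strains did not overlap, but the difference of -0.47 did not pass the test (limma adjusted p = 0.154). Of the 32 named bins that differed between strains, 22 lost the call when some 1 array was left out and 22 when arrays were scaled to one spread. The 6 that kept it under every alternative that gave a value were those of rpl42 and prm1, both ngg1 bins, SPNCRNA.1443 and rpa12.

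Next to the cores, the flanks differed in level. The 5 kb left of cen3 averaged 0.69 and 0.82 in rif1Δ and 0.60 and 0.26 in rif1Δ rad3Δ, over 13 probes in a stretch that holds tRNA genes. The 5 kb right of cen3 averaged 0.40 and 0.74 in rif1Δ and 0.89 and 0.80 in rif1Δ rad3Δ, over 5 probes. At cen1 the left 5 kb changed from -0.30 and -0.050 to 0.53 and 0.58, and the right 5 kb from 0.31 and 0.30 to 0.78 and 0.71. At both sides of cen1 and on the right of cen3, the rif1Δ rad3Δ arrays thus lay above the rif1Δ arrays. The 5 kb left of cen3 went the other way, and the 5 kb steps beside cen2 overlapped. Over all 60 steps of 5 kb in the flanks, 20 were higher and 23 lower in rif1Δ rad3Δ without overlap. Of 2379 such windows elsewhere, 37.5% were higher and 35.9% lower, so the counts in the flanks were near that background.

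tRNA genes, which border the centromeric chromatin, had levels above the array median in rif1Δ. Of the 30 in the named parts of the flanks, 16 had a probe within 300 bp, and of the 21 in the cores of cen2 and cen3, 4 had one. Neighbouring genes share probes, so they are not independent. The median over the 16 flank genes was 0.54 in rif1Δ and 0.24 in rif1Δ rad3Δ, beside 0.45 and 0.39 for 105 tRNA genes elsewhere. In 7 of the 16 the rif1Δ rad3Δ arrays were lower without overlap and in 1 higher, against 37 and 15 of 105 elsewhere. The aspartate tRNA gene SPCTRNAASP.05 beside cen3 read 1.18 and 1.44 in rif1Δ and 0.75 and 0.44 in rif1Δ rad3Δ. Its neighbour SPCTRNAARG.10, an arginine tRNA gene, read 1.25 and 1.08 against 0.98 and 0.63. SPCTRNAGLU.10, inside the central domain of cen3, went the other way, at 1.28 and 1.85 in rif1Δ and 2.27 and 2.29 in rif1Δ rad3Δ. It was the 1 of the 4 core tRNA genes that was higher in rif1Δ rad3Δ, and the other 3, in the outer part of cen2, were lower without overlap.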

How the data were processed

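Per the labels, Rad52 ChIP (Cy3) and input (Cy5) were hybridised on 2-colour Agilent arrays, 2 per strain, and scanner images were quantified, per the submitters' processing notes, in Agilent Feature Extraction version 10.7.3.1. The deposited intensity values are processed signals, background-subtracted and dye-normalised per the file headers. The deposited log10 ratio of Cy5 over Cy3 served to check direction (r of 0.999 or more on every array). The authors' deposited ratio table, a linear ratio of Cy3 over Cy5, was an alternative. Per the file headers, the design used a Feb2002 NCBI build.

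The log2 ratio of ChIP over input was computed from the deposited intensity values and centred on each array's median, after 93 outlier probes were left out. Bins of 1 kb with at least 2 probes, and the means of cores and flanks, were fitted together with limma 3.58.1 (R 4.3.3), with 1 mean per strain over the 4 arrays, and Benjamini-Hochberg adjustment at 0.05. The array medians ranged from 390 to 1115 for ChIP and from 573 to 2145 for input. The number of arrays limits the precision.

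Named bins were all core bins and, in the flanks of each centromere, the 3 highest and 3 lowest bins of each strain and the 3 largest called changes in each direction without overlap. The regions, bins and lists were chosen with earlier results of these data known.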

Additional observations from a re-analysis of the deposited data

How the results depend on the processing

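The results were recomputed under 19 other settings, of which the ChIP channel alone was added after the data were seen. The authors' ratio table, other minimums of probes per bin, the replicate block and windows of 50 kb in place of bins left the core means unchanged. Those settings could alter only the error and the adjustment. Core levels in rif1Δ rad3Δ were above 0 by limma's test under every setting that gave a value. In rif1Δ they were not called with the ChIP channel alone (0.25, 0.32 and 0.19 for cen1, cen2 and cen3), nor at cen1 with cores widened by 5 kb (0.21). For the flank means, the lowest limma adjusted p in any setting was 0.331. The difference between strains at cen3 missed the threshold with normexp (0.56), with the A+T trend removed (0.51), with the ChIP channel alone (0.61), with medians over probes (0.51), with widened cores (0.047) and without any 1 array (0.55 to 0.66). Scaling arrays to one spread turned it to -0.26, and gave -0.30 at cen1 and -0.28 at cen2. It also gave -0.27 for the bin at 3769000 on chromosome I, -0.18, -0.28, -0.55 and -0.41 for those at 1622000, 1623000, 1624000 and 1625000 on chromosome II, and -0.18 and -0.30 for those at 1097000 and 1098000 on chromosome III. Other sign changes, of differences that were not called and lay within their SE in at least 1 of the settings compared, are counted as unchanged. The cen1 difference passed with widened cores (0.54). The cause of these changes was not tested. A fit with the replicate number as a block called cen2 at the same 0.40 (limma adjusted p = 0.047) and cen3 at 0.61, and counted 42 bins higher and 22 lower in rif1Δ, against 15 and 2, and 48 lower in rif1Δ rad3Δ than in rif1Δ, against 24. Replicate deviations of the strains correlated at 0.331 over 12047 bins, but with 2 pairs the numbers are not taken to pair the arrays. Slide as a random block could not be fitted with 4 arrays. Of the counts of bins, those higher in rif1Δ were 23 with normexp, 27 with loess, 35 with one spread, 85 with the ChIP channel alone and 9 to 22 without 1 array. Those lower in rif1Δ were 1 with loess, 0 with mode centring, 5 after A+T correction, 10 with one spread, 83 with the ChIP channel alone and 0 to 2 without 1 array. Those lower in rif1Δ rad3Δ, 67 in the main setting, were 38 with one spread and 41 to 66 without 1 array. Bins higher in rif1Δ rad3Δ than in rif1Δ, 44 in the main setting, were 18 with normexp, 27 with mode centring, 7 with one spread and 12 to 24 without 1 array. Bins lower were 3 with one spread, 8 with the ChIP channel alone and 5 to 15 without 1 array. Core minus flanks in rif1Δ was 1.66 with one spread, 0.27 with the ChIP channel alone and 0.71 with widened cores. In rif1Δ rad3Δ it was 1.57 with normexp, 1.74 with loess, 1.83 after A+T correction, 1.38 with one spread, 0.70 with the ChIP channel alone, 1.92 with medians and 1.01 with widened cores. With 6, 29 and 7 probes in the cores and gaps of up to 41.9 kb, long stretches of the cores were not read.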
